A study of Homo sapiens with 8 samples.

Results

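The genes described here are 41 immediate early and growth-factor feedback genes, chosen by name from a fixed list of such genes that leaves out the FOS and JUN family. All 41 were found among the 23368 gene symbols of the count table, and 40 of them were among the 15254 genes tested. EGR4 was not tested, because it had 2, 0 and 1 reads in the overexpression libraries, 9 and 3 in the knockdown libraries, and 1, 2 and 1 in the control libraries. The RNA came from HEK293F, an established human embryonic kidney line, grown in medium with serum. MOV10, an RNA helicase that binds FMRP and takes part in microRNA-mediated regulation, was raised with 1 transfection of a myc-tagged MOV10 plasmid in 3 libraries (overexpression). In 2 libraries MOV10 siRNA was given 3 times at intervals of 24 h (knockdown), and in 3 libraries an irrelevant siRNA was given on the same schedule (control). The labels name no siRNA treatment for the overexpression cells, and cells given an empty plasmid were not analysed here. In comparisons of overexpression with control or with knockdown, MOV10 therefore cannot be told apart from plasmid delivery or from siRNA treatment. The labels do not say that libraries of a group are separate cultures, so the p-values measure a spread between libraries that may be technical only.

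Immediate early genes are transcribed within minutes of a stimulus such as a growth factor, serum or stress, without new protein synthesis. ERK, the last kinase of the RAS, RAF and MEK cascade, activates factors that bind their promoters with SRF, and many of the transcripts are short-lived. Feedback genes are induced by the same cascade and act back on it: dual-specificity phosphatases remove phosphate from MAP kinases, Sprouty and SPRED proteins restrain RAS signalling, and ERRFI1 inhibits the EGF receptor.

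Promoter letters are shown for the members that hold a CArG box, the site bound by SRF, or a cyclic AMP response element (CRE, TGACGTCA), because these are the elements that early genes are known for. Windows of 300 bases around annotated starts (250 before and 50 after) were found in the RefSeq table (GRCh38.p14) for 32 members, several of them with more than 1 start. The members named only, with no entry there, were ARC, DUSP4, DUSP5, EGR3, IER3, KLF10, MCL1, MYC and NR4A2. Both strands were searched. A CArG box was found in 3 of the 32 members (9.38%), against 1.60% of the 27305 genes in the table, and a CRE in 5 (15.6%), against 2.25%. Each line gives 30 bases from within those windows, read 5′ to 3′ on the gene's strand, with the element in capitals.
EGR1, CArG box, chr5:138465364-138465393, plus strand: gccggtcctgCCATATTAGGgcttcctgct
EGR1, CArG box, chr5:138465386-138465415, plus strand: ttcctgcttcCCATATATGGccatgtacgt
EGR2, CArG box, chr10:62816418-62816447, minus strand: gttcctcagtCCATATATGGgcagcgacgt
SRF, CArG box, chr6:43171229-43171258, plus strand: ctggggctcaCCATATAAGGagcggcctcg
PPP1R15A, CRE, chr19:48872352-48872381, plus strand: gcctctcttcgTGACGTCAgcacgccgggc
DUSP1, CRE, chr5:172771302-172771331, minus strand: ggcagggcgggTGACGTCAccgccccgtca
DUSP8, CRE, chr11:1572371-1572400, minus strand: ccgggctccgcTGACGTCAcctgcccccga
KLF11, CRE, chr2:10044034-10044063, plus strand: atttccagccaTGACGTCAccccggtcctg
MAFF, CRE, chr22:38201929-38201958, plus strand: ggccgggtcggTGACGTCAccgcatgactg

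In EGR1 the boxes begin 105 and 83 bases before the start, in EGR2 71 and in SRF 30. The CRE begins 58 bases before the start in PPP1R15A, 125 in DUSP1, 118 in DUSP8, 176 in KLF11 and 54 in MAFF. DUSP8 and SRF each hold a further copy of their element, 74 and 10 bases before the start. The CRE variant TGACGTG was found in EGR1 and NR4A3 (6.25% of members against 2.40% of all genes). The GC box GGGGCGGGG, of the kind bound by SP1 and KLF factors, was found in 13 members (40.6% against 18.5%), and CCAAT in 12 (37.5% against 39.7%). The AP-1 site TGACTCA was found in SPRED2 alone of the 32 (3.12% against 6.05%). Neither the ETS site CCGGAAGT nor the EGR site GCGTGGGCG was found in the windows of these 32 members, against 4.95% and 0.960% of all genes. None of the motifs with fixed letters contains another. The CArG box takes any A or T letters between CC and GG, so some of its forms contain CCAAT. A match only describes the letters.

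Library totals were between 12737889 and 32826936 reads. MOV10 itself stood at 2454 to 2971 CPM (the gene's reads scaled to a common library size with TMM factors) with overexpression, at 50.6 and 55.5 CPM with knockdown, and at 76.4 to 91.2 CPM in control cells, as labelled. The 8 markers taken for HEK293 cells (PAX2, LHX1, KRT8, KRT18, VIM, NEFL, NEFM and CDH2) were present in every library. They summed to 1232 to 1283 CPM with overexpression, 1593 and 1661 CPM with knockdown and 1374 to 1397 CPM in control cells. Most of that was VIM, with means of 772, 1055 and 827 CPM in the same order. Of the 8, 1 was higher and 2 lower than control with overexpression (12.5% and 25%, against 25.2% and 24.1% of all tested genes). With knockdown 2 were higher and 2 lower (25% each, against 19.9% and 19.1%). Blood markers summed to 0.716 to 1.42, 0.532 to 0.729 and 0.984 to 1.34 CPM in overexpression, knockdown and control libraries, with HBB at 0 throughout. Endothelial markers summed to 0.224 to 0.584, 0.372 to 0.856 and 0.534 to 1.11 CPM, and liver markers to 0.537 to 1.21, 0.798 to 1.05 and 0.266 to 0.828 CPM. The fibroblast list summed to 61.6 to 69.1, 45.2 to 47.7 and 61.8 to 67.5 CPM in overexpression, knockdown and control libraries. Most of that was COL1A1. Of the list's 4 tested genes, DCN, LUM and COL3A1 were higher with overexpression (75%, against 25.2% of all tested genes). DCN and COL3A1 were low even there, at 0.460 to 0.709 and 1.75 to 2.15 CPM. The epithelial genes CDH1 and EPCAM summed to 25.3 to 30.1 CPM with overexpression, 11.8 and 14.4 CPM with knockdown, and 20.7 to 23.4 CPM in control cells. CDH1 was higher than control with overexpression (log2 fold change 0.55 ± 0.10), and both genes were lower with knockdown. Any part of these markers in the results below was not tested.

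Per kilobase of exon (CPM per kb, GENCODE 29 lengths), the members spanned a wide range in control cells. MCL1, an anti-apoptotic BCL2 relative, was the most abundant at 85.4 ± 1.98 CPM per kb (SD, n = 3), followed by PPP1R15A at 71.8 ± 0.529, HES1 at 67.1 ± 1.84 and ATF3 at 60.8 ± 0.966 CPM per kb. These 4 neighbours were each separated by more than their SDs. EGR1, the ninth in that order, stood at 34.3 ± 3.76 CPM per kb, while EGR3 and EGR2 were near the bottom at 0.794 ± 0.0378 and 0.545 ± 0.0955 CPM per kb. With overexpression PPP1R15A (107 ± 3.99 CPM per kb) and ATF3 (101 ± 1.43) stood above MCL1 (86.0 ± 5.49), and with knockdown PPP1R15A (119 ± 13.8) and MCL1 (105 ± 5.98) did not differ beyond their spread. Exons of 11 members overlap an annotated gene on the other strand, among them those of EGR3, IER2, IER3, CSRNP1, NR4A1, DUSP6 and PHLDA1. The strand setting of the counting is not given in the sources used here, so reads of such partners cannot be told apart from those of the member.

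The 41 genes together took 0.290%, 0.298% and 0.290% of all reads in the overexpression libraries, 0.300% and 0.287% in the knockdown libraries, and 0.239%, 0.234% and 0.233% in the control libraries. Every treated library was therefore above every control library in this summed share, to which abundant genes such as MCL1 and ATF3 contribute most. With overexpression 21 of the 40 tested members were higher and 5 lower than control (edgeR adjusted p under 0.05), which is 52.5% and 12.5% of them. Over all tested genes 25.2% were called higher and 24.1% lower in that comparison. The members' median log2 fold change was 0.28 and that of all tested genes 0.01. With knockdown 22 members were higher and 3 lower (55% and 7.5%), against 19.9% and 19.1% of all tested genes, with a median of 0.20 against 0.00. Both comparisons use the same 3 control libraries and are not independent of each other. In bulk RNA, a change in the number of cells that express a gene and a change in its RNA per cell cannot be told apart. When library totals replaced TMM, the calls over all tested genes were 4520 higher and 2997 lower with overexpression, and 2353 higher and 3611 lower with knockdown.

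**Figure D1:**
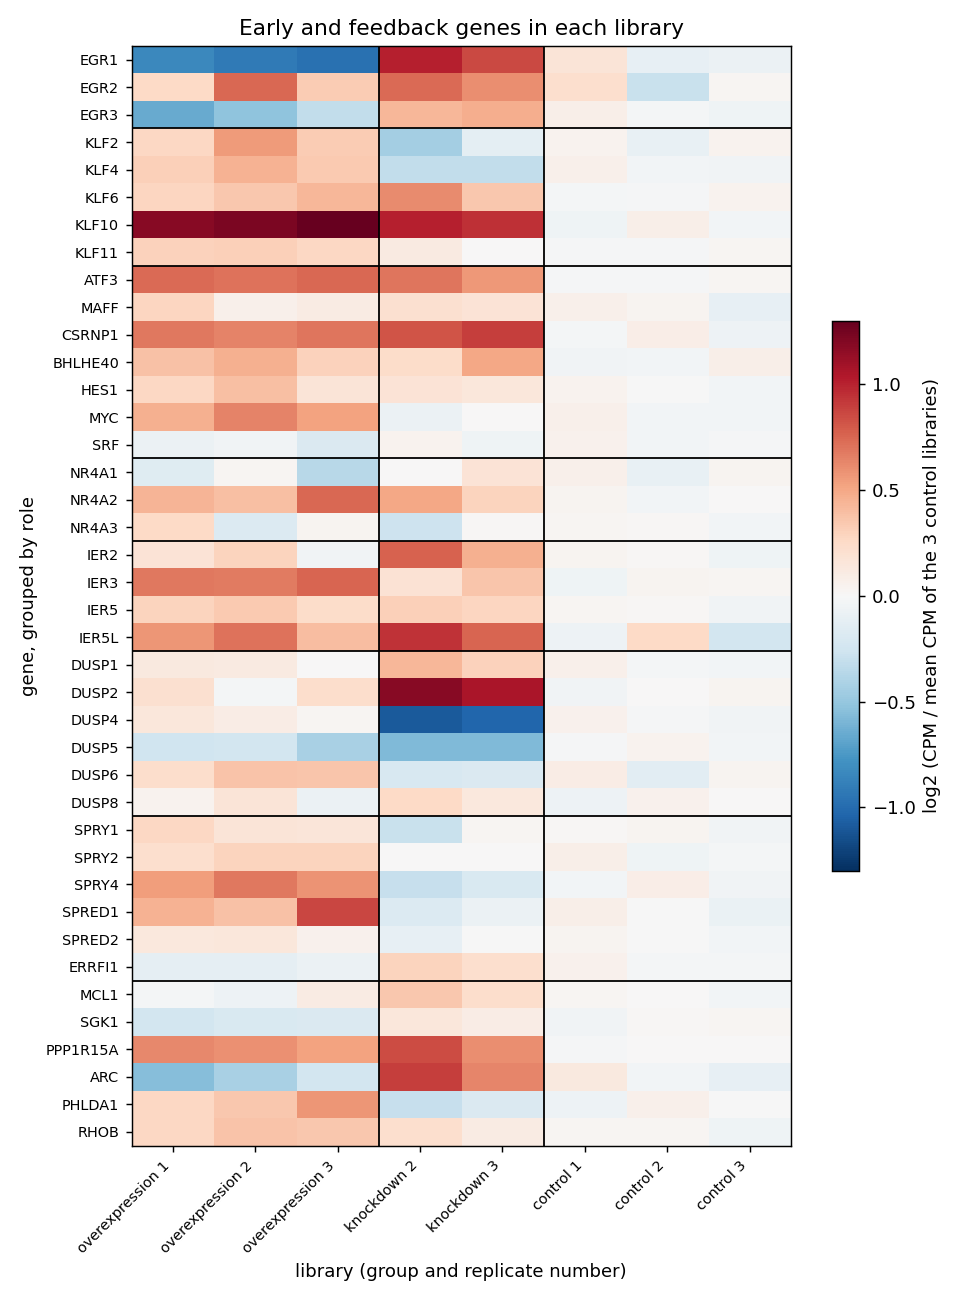
Level of each of the 40 tested genes in each of the 8 libraries, as the log2 ratio of its CPM to the mean CPM of the 3 control libraries (red higher, blue lower). Columns are libraries, with overexpression at the left, and horizontal lines separate roles. KLF10 is red in all 5 treated libraries, whereas EGR1 and ARC are blue in the overexpression libraries and red in the knockdown libraries.

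The EGR genes encode zinc-finger transcription factors that ERK signalling induces, and EGR1 was the most changed of them. EGR1 stood at 60.0, 56.9 and 54.9 CPM in the overexpression libraries, at 217 and 195 CPM in the knockdown libraries, and at 121, 99.6 and 102 CPM in the control libraries. The groups did not overlap: overexpression was lowest and knockdown highest. EGR1 fell with overexpression by 0.91 on the log2 scale (SE 0.07, edgeR adjusted p = 3.58e-09), which left 0.533 of the control level. With knockdown it rose 1.92-fold, a log2 fold change of 0.94 ± 0.07 (SE, edgeR adjusted p = 4.15e-09).

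EGR3, a close relative, had the same order at a far lower level. It stood at 2.25, 2.46 and 2.84 CPM with overexpression, 4.76 and 4.89 CPM with knockdown, and 3.72, 3.47 and 3.41 CPM in control cells, without overlap between groups. Its log2 fold change was -0.52 ± 0.15 (SE) with overexpression (edgeR adjusted p = 0.00770) and 0.44 ± 0.14 with knockdown (adjusted p = 0.0191). The EGR3 calls were narrow: without overexpression replicate 1 the adjusted p was 0.0502, and without knockdown replicate 2 or 3 or control replicate 2 or 3 it was 0.0547 to 0.0990 for knockdown. EGR2, known for its part in myelination, had 2.04, 2.86 and 2.15 CPM with overexpression, 2.85 and 2.61 CPM with knockdown, and 1.99, 1.40 and 1.74 CPM in control cells. It rose with knockdown (log2 fold change 0.68 ± 0.21, edgeR adjusted p = 0.0128), and that call was lost without knockdown replicate 2 (0.150) or control replicate 2 (0.0715). With overexpression its log2 fold change of 0.46 ± 0.20 was not called (edgeR adjusted p = 0.0636), but it was without overexpression replicate 1 (0.0423) or control replicate 1 (0.0444).

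**Figure D2:**
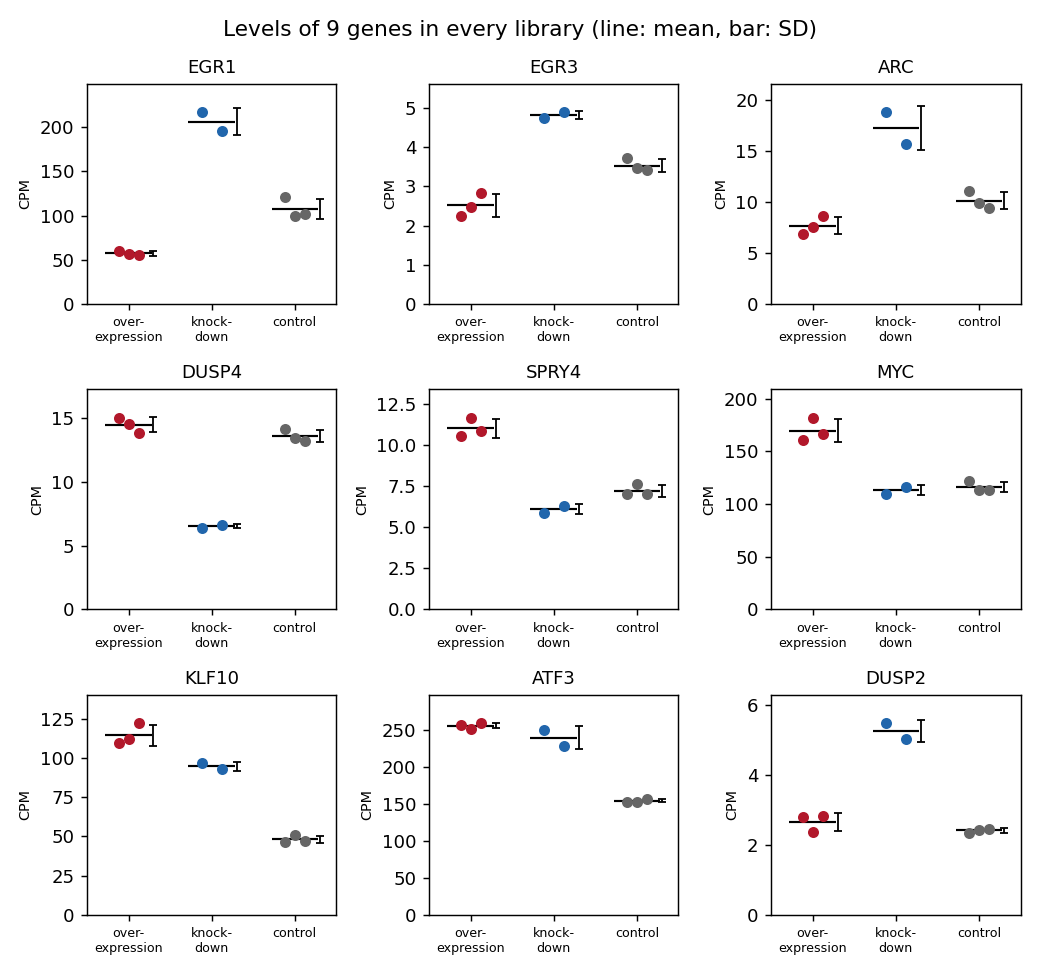
CPM of 9 genes in every library, with the mean as a line and the SD as a bar, in overexpression (3 libraries), knockdown (2) and control (3); each axis starts at 0. EGR1, EGR3 and ARC are lowest with overexpression and highest with knockdown, DUSP4 is low in both knockdown libraries, SPRY4 and MYC are high with overexpression, KLF10 and ATF3 are high with either treatment, and DUSP2 is high with knockdown.

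KLF10, a zinc-finger repressor first described as an early gene of TGF-beta signalling, had the largest rise of any member with overexpression. It stood at 109, 112 and 122 CPM with overexpression, at 96.6 and 92.7 CPM with knockdown, and at 46.4, 50.8 and 47.0 CPM in control cells. All treated libraries lay far above all control libraries. The rise was 2.37-fold with overexpression (log2 fold change 1.25 ± 0.06, SE, edgeR adjusted p = 2.37e-12) and 1.97-fold with knockdown (0.98 ± 0.06, adjusted p = 4.93e-10). Its relative KLF11 rose with overexpression and was not called with knockdown, with log2 fold changes of 0.30 ± 0.06 (edgeR adjusted p = 0.000221) with overexpression and 0.07 ± 0.06 (0.425) with knockdown. KLF6, a zinc-finger factor of the same family, rose with both, by 0.35 ± 0.06 and 0.50 ± 0.07 (log2, SE, edgeR adjusted p = 0.000116 and 1.13e-05).

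KLF4, best known as a factor used to reprogram cells to pluripotency, moved in opposite directions. It had 30.4, 33.6 and 30.9 CPM with overexpression, 19.6 in both knockdown libraries, and 25.7, 24.0 and 23.8 CPM in control cells, with no overlap between groups. Its log2 fold change was 0.37 ± 0.07 (SE) with overexpression (edgeR adjusted p = 0.000171) and -0.33 ± 0.08 with knockdown (adjusted p = 0.00268). KLF2, a factor of endothelium and T cells, lay at 2.79, 3.40 and 2.91 CPM with overexpression, 1.71 and 2.13 CPM with knockdown, and 2.39, 2.17 and 2.40 CPM in control cells. These 3 groups did not overlap either, but neither comparison of KLF2 with control was called (edgeR adjusted p = 0.0579 and 0.224).

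Among the other transcription factors, ATF3 and CSRNP1 were higher with either treatment. ATF3, a stress-induced factor of the ATF/CREB family, had 257, 252 and 259 CPM with overexpression, 250 and 228 CPM with knockdown, and 153, 153 and 157 CPM in control cells. Its fold was 1.66 with overexpression (log2 0.73 ± 0.05, SE, edgeR adjusted p = 3.94e-10) and 1.55 with knockdown (0.63 ± 0.05, adjusted p = 1.33e-08). CSRNP1, a nuclear protein induced by AXIN1, had 44.8, 43.3 and 44.9 CPM with overexpression, 48.8 and 51.7 CPM with knockdown, and 27.4, 29.4 and 26.6 CPM in control cells. It rose 1.59-fold with overexpression and 1.803-fold with knockdown (edgeR adjusted p = 5.59e-08 and 7.85e-09). In both genes every treated library lay above every control library.

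BHLHE40, a repressor of the clock and hypoxia responses, rose by 0.39 ± 0.06 with overexpression and 0.38 ± 0.07 with knockdown (log2, SE, edgeR adjusted p = 3.06e-05 and 0.000195). Its knockdown libraries were spread, at 192 and 231 CPM, and without knockdown replicate 3 the log2 fold change was 0.24. HES1, a repressor downstream of Notch, rose by 0.28 ± 0.06 with overexpression (edgeR adjusted p = 0.000272). Its knockdown value of 0.16 ± 0.06 (adjusted p = 0.0422) lost the call whichever knockdown or control library was left out (0.0540 to 0.249).

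MYC, the growth-promoting factor, rose with overexpression and was not called with knockdown. It stood at 160, 182 and 167 CPM with overexpression, at 110 and 116 CPM with knockdown, and at 122, 113 and 113 CPM in control cells. The overexpression libraries lay above all others, with a log2 fold change of 0.55 ± 0.05 (SE, edgeR adjusted p = 1.30e-07), while the knockdown value was -0.04 ± 0.06 (0.636). SRF, the factor that binds CArG boxes, was not called in either comparison with control, at log2 fold changes of -0.10 ± 0.05 and 0.00 ± 0.06 (edgeR adjusted p = 0.128 and 0.993). MAFF, a small MAF protein, was not called either (0.15 ± 0.11 and 0.19 ± 0.11, edgeR adjusted p = 0.246 and 0.202).

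The NR4A genes encode orphan nuclear receptors that are induced early by many stimuli, and 1 of the 3 was called against control. NR4A2 had 12.3, 11.9 and 15.3 CPM with overexpression, 12.9 and 11.1 CPM with knockdown, and 9.27, 8.85 and 9.08 CPM in control cells, so that every treated library lay above the controls. It rose by 0.51 ± 0.11 with overexpression and 0.41 ± 0.11 with knockdown (log2, SE, edgeR adjusted p = 0.000463 and 0.00621). Without knockdown replicate 2 the knockdown value was 0.28 and was not called (adjusted p = 0.193). NR4A1 (21.9 to 28.6, 28.2 to 31.8 and 26.2 to 29.3 CPM in overexpression, knockdown and control libraries) was not called against control, at log2 fold changes of -0.14 ± 0.09 and 0.09 ± 0.09. Without overexpression replicate 2 it was lower with overexpression (log2 -0.23, edgeR adjusted p = 0.0235). NR4A3 (4.97 to 6.75, 4.66 to 5.69 and 5.48 to 5.72 CPM) was not called, at 0.05 ± 0.13 and -0.15 ± 0.15.

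All 4 IER genes, small early-response genes, rose with knockdown, and 3 rose with overexpression, where 19.9% and 25.2% of all tested genes were called higher. IER2, a regulator of transcription and motility, had 112, 121 and 95.8 CPM with overexpression, 168 and 137 CPM with knockdown, and 101, 100 and 95.0 CPM in control cells. Of the overexpression libraries, replicates 1 and 2 lay above all controls and replicate 3 within their range, while the knockdown libraries lay above both groups. Its log2 fold change was 0.63 ± 0.08 (SE) with knockdown (edgeR adjusted p = 4.68e-06) and 0.15 ± 0.08 with overexpression (0.0972). Without overexpression replicate 3, IER2 was called higher with overexpression, at 0.23 (adjusted p = 0.00101).

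IER3, which acts on cell survival and ERK signalling, had 31.0, 30.8 and 32.6 CPM with overexpression, 22.04 and 24.88 CPM with knockdown, and 18.6, 19.7 and 19.6 CPM in control cells. It rose by 0.70 ± 0.07 with overexpression and 0.27 ± 0.08 with knockdown (log2, SE, edgeR adjusted p = 1.70e-07 and 0.0102). The knockdown call was lost without knockdown replicate 3 (0.126) or control replicate 1 (0.0511). IER5L, a relative of the heat-shock regulator IER5, had 22.9, 25.1 and 20.3 CPM with overexpression, 29.6 and 26.1 CPM with knockdown, and 14.7, 18.4 and 13.1 CPM in control cells, with log2 fold changes of 0.57 ± 0.10 and 0.85 ± 0.11 (edgeR adjusted p = 0.000124 and 3.74e-06). IER5 itself rose by 0.29 ± 0.05 in each comparison (edgeR adjusted p = 7.35e-05 and 0.000247).

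Of the 6 dual-specificity phosphatases, 1 rose and 1 fell with overexpression (16.7% each, against 25.2% and 24.1% of all tested genes). With knockdown 3 rose and 2 fell (50% and 33.3%, against 19.9% and 19.1%). DUSP4, a nuclear phosphatase of ERK and other MAP kinases, had the deepest fall of any member with knockdown. It stood at 15.05, 14.5 and 13.9 CPM with overexpression, at 6.40 and 6.65 CPM with knockdown, and at 14.2, 13.5 and 13.2 CPM in control cells. Both knockdown libraries lay far below the other groups, which overlapped. The knockdown level was 0.476 of control (log2 -1.07 ± 0.10, SE, edgeR adjusted p = 8.35e-08), and the overexpression value was not called (0.09 ± 0.08, 0.365).

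DUSP2, a nuclear phosphatase known mostly from immune cells, had the largest rise of any member with knockdown. It had 2.79, 2.37 and 2.84 CPM with overexpression, 5.49 and 5.05 CPM with knockdown, and 2.35, 2.43 and 2.47 CPM in control cells. That is a 2.20-fold rise with knockdown (log2 1.14 ± 0.15, SE, edgeR adjusted p = 6.81e-06), at a low level, with 0.13 ± 0.16 (0.524) for overexpression. DUSP5, a nuclear phosphatase specific for ERK, was called lower in both comparisons. It had 20.1, 20.4 and 17.9 CPM with overexpression, 16.1 in both knockdown libraries, and 23.8, 24.9 and 23.5 CPM in control cells, with log2 fold changes of -0.29 ± 0.07 and -0.58 ± 0.08 (edgeR adjusted p = 0.00243 and 1.35e-05).

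DUSP6, the cytoplasmic phosphatase specific for ERK, had 7.13, 7.88 and 7.82 CPM with overexpression, 5.26 and 5.32 CPM with knockdown, and 6.47, 5.54 and 6.21 CPM in control cells. The groups did not overlap. It rose with overexpression (log2 0.32 ± 0.11, SE, edgeR adjusted p = 0.0224) and was not called with knockdown (-0.20 ± 0.13, 0.212). The overexpression call was lost without overexpression replicate 2 (adjusted p = 0.0676) or control replicate 2 (0.116). DUSP1, which acts mainly on p38 and JNK, and DUSP8, a phosphatase of the same kinases, rose with knockdown by 0.37 ± 0.06 and 0.21 ± 0.07 (edgeR adjusted p = 6.95e-05 and 0.0335). The DUSP8 call was lost without knockdown replicate 2 or control replicate 1 or 3 (0.0759 to 0.343). DUSP1 was called with overexpression only without overexpression replicate 3 (log2 0.12, edgeR adjusted p = 0.0367).

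**Figure D3:**
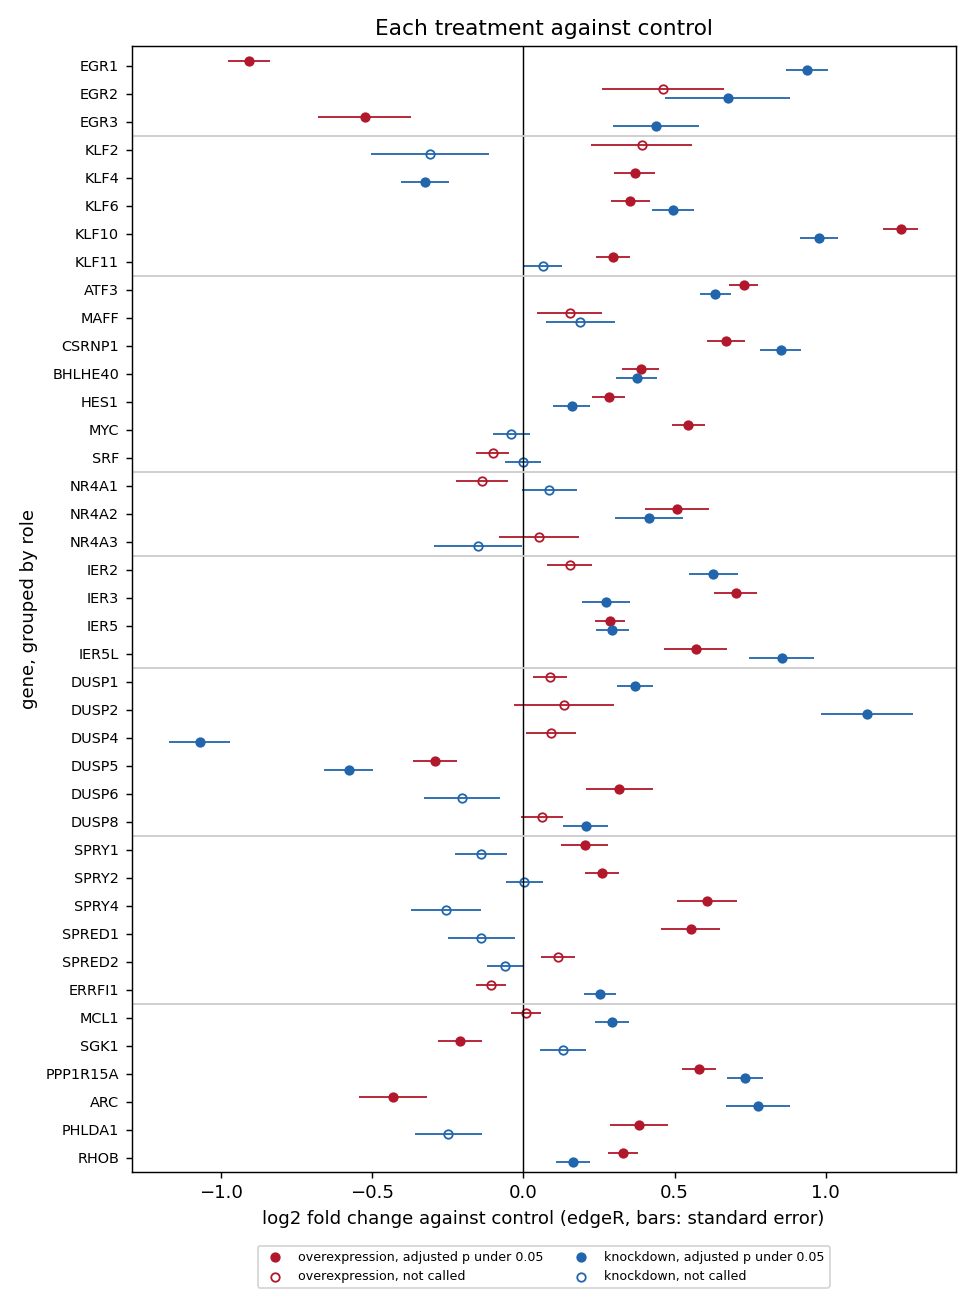
Log2 fold change of each of the 40 tested genes against control, for overexpression (red, upper point of each pair) and knockdown (blue), with standard errors; filled points have an edgeR adjusted p under 0.05, and grey lines separate roles. Both comparisons share the control libraries. EGR1 and DUSP4 have the lowest values (-0.91 and -1.07) and KLF10 and DUSP2 the highest (1.25 and 1.14).

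Of the inhibitors that act on receptors and RAS, 4 of 6 rose with overexpression (66.7%, against 25.2% of all tested genes) and 1 with knockdown (16.7%, against 19.9%). SPRY4, a Sprouty protein, had 10.5, 11.7 and 10.9 CPM with overexpression, 5.90 and 6.33 CPM with knockdown, and 7.05, 7.66 and 7.01 CPM in control cells. The overexpression libraries lay above and the knockdown libraries below all controls. Its rise with overexpression was 1.52-fold (log2 0.61 ± 0.10, SE, edgeR adjusted p = 3.67e-05), and its knockdown value of -0.25 ± 0.12 was not called (0.0881).

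SPRED1, which brings neurofibromin to RAS, had 29.97, 28.6 and 40.1 CPM with overexpression, 19.4 and 20.7 CPM with knockdown, and 23.2, 21.9 and 20.7 CPM in control cells. It rose with overexpression, with replicate 3 well above the other two (log2 0.55 ± 0.10, SE, edgeR adjusted p = 9.06e-05). The knockdown value of -0.14 ± 0.11 was not called (0.339). SPRY2 and SPRY1 rose less with overexpression, by 0.26 ± 0.06 and 0.20 ± 0.08 (log2, SE, edgeR adjusted p = 0.000651 and 0.0344), and neither was called with knockdown (0.970 and 0.212). The SPRY1 call was lost without overexpression replicate 1 or any control replicate (0.0592 to 0.161), and SPRY1 was lower with knockdown without knockdown replicate 3 (edgeR adjusted p = 0.0270).

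ERRFI1 went the other way, with 94.6, 94.7 and 97.9 CPM with overexpression, 125 and 120 CPM with knockdown, and 107, 101 and 101 CPM in control cells. It rose with knockdown (log2 0.25 ± 0.05, SE, edgeR adjusted p = 0.000914), and its value of -0.11 ± 0.05 with overexpression was not called (0.0815). SPRED2 was not called against control, at 0.12 ± 0.06 and -0.06 ± 0.06 (edgeR adjusted p = 0.0928 and 0.476). Without overexpression replicate 3, both were called with overexpression, ERRFI1 at -0.12 (edgeR adjusted p = 0.0284) and SPRED2 at 0.14 (0.0269).

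The remaining early-induced genes included the stress gene PPP1R15A and the neuronal activity gene ARC. PPP1R15A, whose product directs a phosphatase to the translation factor eIF2-alpha, had 263, 258 and 245 CPM with overexpression, 307 and 260 CPM with knockdown, and 169, 172 and 171 CPM in control cells. Every treated library lay above the controls. The fold was 1.496 with overexpression and 1.66 with knockdown (edgeR adjusted p = 5.95e-08 and 1.27e-08).

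ARC, known as a synaptic gene induced by activity in neurons, had 6.88, 7.57 and 8.59 CPM with overexpression, 18.8 and 15.7 CPM with knockdown, and 11.0, 9.89 and 9.42 CPM in control cells. As for EGR1, the overexpression libraries were lowest and the knockdown libraries highest, without overlap. ARC stood at 0.742 of control with overexpression (log2 -0.43 ± 0.11, SE, edgeR adjusted p = 0.00336) and rose 1.71-fold with knockdown (0.78 ± 0.11, adjusted p = 8.47e-06). PHLDA1, a protein with a pleckstrin-like domain, had 12.2, 12.9 and 15.03 CPM with overexpression, 8.24 and 8.88 CPM with knockdown, and 9.66, 10.6 and 10.1 CPM in control cells. It rose with overexpression (0.38 ± 0.10, edgeR adjusted p = 0.00256) and was not called with knockdown (-0.25 ± 0.11, 0.0814).

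RHOB, a small GTPase of endosomes and the cytoskeleton, rose by 0.33 ± 0.05 with overexpression and 0.16 ± 0.06 with knockdown (log2, SE, edgeR adjusted p = 1.96e-05 and 0.0242). The knockdown call was lost without knockdown replicate 2 or control replicate 1 or 3 (0.0501 to 0.331). MCL1 rose with knockdown (0.29 ± 0.06, edgeR adjusted p = 0.000294) and stood at 0.01 ± 0.05 with overexpression (0.898). SGK1, a kinase induced by serum and glucocorticoids, fell with overexpression by 0.21 (SE 0.07, edgeR adjusted p = 0.0207) and was not called with knockdown (0.13 ± 0.08, 0.177). Its call was lost without overexpression replicate 1 or control replicate 2 or 3 (0.0549 to 0.0765).

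The direct comparison of overexpression with knockdown leaves the control libraries out of the contrast and tests whether the 2 treatments differ. The treatments also differ in delivery, with 1 plasmid transfection for overexpression and siRNA given 3 times for knockdown. Of the 40 members, 16 were higher and 13 lower with overexpression than with knockdown (40% and 32.5%), against 29.3% and 28.1% of all tested genes. The members' median log2 fold change was 0.05 and that of all tested genes 0.02. With library totals in place of TMM the split was 18 higher and 9 lower among members, and 5709 higher and 3001 lower over all tested genes.

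EGR1 differed most, at 0.278 of the knockdown level (log2 -1.85 ± 0.07, SE, edgeR adjusted p = 1.48e-13). ARC (-1.21 ± 0.11), DUSP2 (-1.001 ± 0.15), EGR3 (-0.96 ± 0.15) and IER2 (-0.48 ± 0.08) were also lower with overexpression than with knockdown, with edgeR adjusted p-values of 2.07e-08, 8.53e-06, 1.96e-05 and 4.42e-05. Without knockdown replicate 2, IER2 stood at -0.31. These genes include transcription factors of the EGR family, a synaptic gene and a phosphatase, and ERRFI1, DUSP1, MCL1 and SGK1 followed at smaller sizes, from -0.36 to -0.28.

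DUSP4 was the member most in excess with overexpression, at 2.24 times the knockdown level (log2 1.16 ± 0.10, SE, edgeR adjusted p = 9.98e-09). SPRY4 (0.86 ± 0.11), KLF2 (0.70 ± 0.18), KLF4 (0.69 ± 0.08), SPRED1 (0.69 ± 0.11), PHLDA1 (0.63 ± 0.11), MYC (0.59 ± 0.06) and DUSP6 (0.52 ± 0.12) followed, with edgeR adjusted p-values from 1.22e-07 to 0.00291. The KLF2 call was lost without knockdown replicate 2 (0.1001). IER3 (0.43 ± 0.08), SPRY1 (0.34 ± 0.09) and SPRY2 (0.26 ± 0.06) were higher by less. Of the 6 inhibitors that act on receptors and RAS, 5 were higher (the Sprouty and SPRED members) and 1, ERRFI1, was lower with overexpression than with knockdown. These are 83.3% and 16.7%, against 29.3% and 28.1% of all tested genes. Of the 6 phosphatases, 3 were higher, among them DUSP5 (0.29 ± 0.08), and 2 were lower (50% and 33.3%, against the same shares). The calls of DUSP5 (0.0520), SPRY1 (0.161) and SPRED2 (0.250) were lost without knockdown replicate 2, and that of SPRED2 also without overexpression replicate 1 (0.0655).

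Several members that rose with both treatments had small differences between them. ATF3 stood at 0.09 ± 0.05 (log2, SE) and BHLHE40 at 0.01 ± 0.07, and neither was called (edgeR adjusted p = 0.126 and 0.887). KLF10 was higher with overexpression (0.27 ± 0.06, edgeR adjusted p = 0.000752). CSRNP1 (-0.18 ± 0.06), IER5L (-0.28 ± 0.10) and PPP1R15A (-0.15 ± 0.06) were lower (edgeR adjusted p = 0.0223, 0.0232 and 0.0342). PPP1R15A stood at -0.03 without knockdown replicate 2 (edgeR adjusted p = 0.771) and at -0.27 without knockdown replicate 3. The CSRNP1 call was lost without overexpression replicate 1 or 2 or knockdown replicate 3 (0.0516 to 0.156), and that of IER5L without overexpression replicate 1 or knockdown replicate 2 (0.0588 and 0.303). NR4A1 was lower by this test (-0.22 ± 0.09, 0.0424) although its libraries overlapped, and the call was lost without overexpression replicate 1 or 3 or knockdown replicate 3 (0.105 to 0.282). KLF11 and RHOB lost theirs without knockdown replicate 3 (0.0695 and 0.203). With library totals CSRNP1, IER5L, PPP1R15A and NR4A1 were not called (edgeR adjusted p = 0.225, 0.114, 0.345 and 0.221), and ATF3 was called higher with overexpression. KLF6 was called lower without overexpression replicate 3 or knockdown replicate 3 (0.00842 and 0.00699), HES1 higher without overexpression replicate 3 (0.00350) and DUSP8 lower without overexpression replicate 2 (0.0233).

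**Figure D4:**
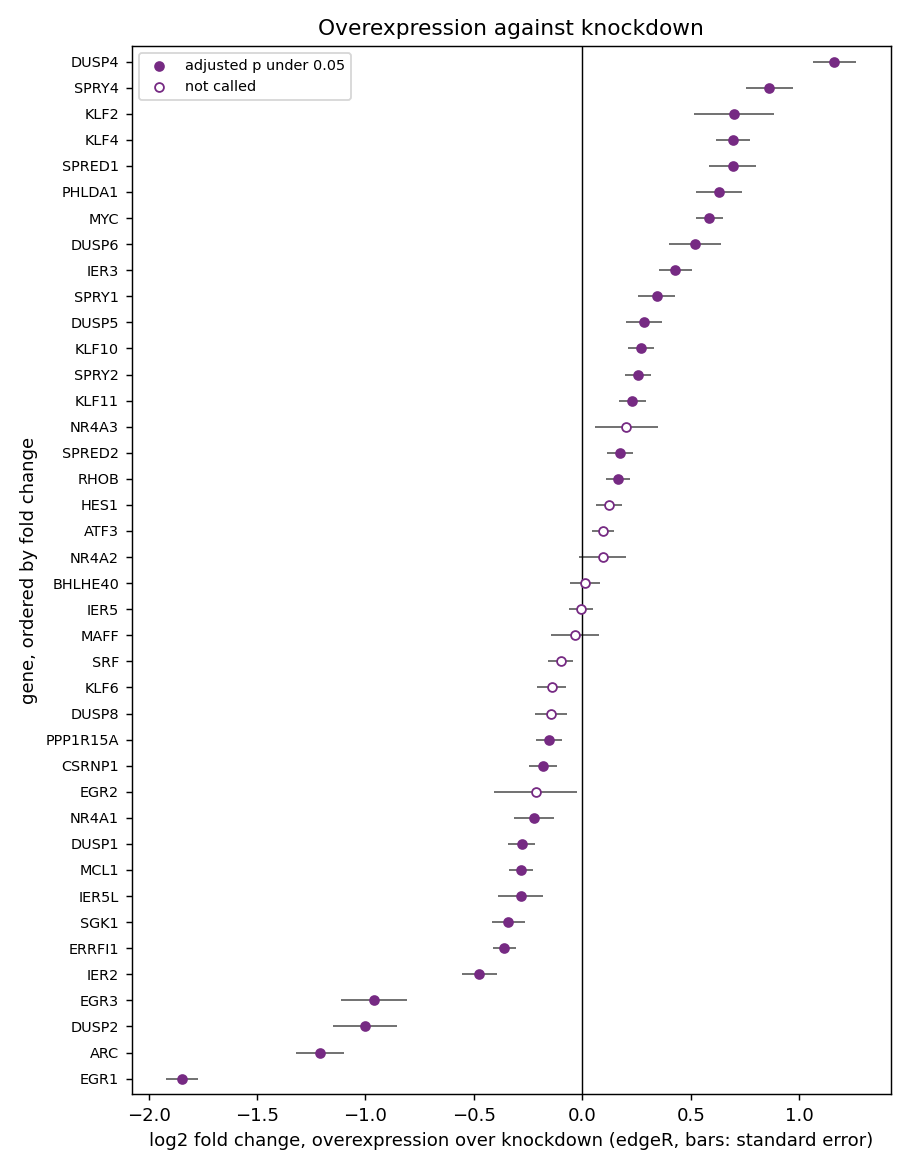
Log2 fold change of overexpression over knockdown for the 40 tested genes, in order of size, with standard errors; filled points have an edgeR adjusted p under 0.05. DUSP4 is at the upper end (1.16) and EGR1 at the lower end (-1.85), with ATF3 and BHLHE40 close to 0.

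Other genes of the same responses were counted from lists chosen with earlier results of these data known. Of the 7 AP-1 genes, 3 rose and 2 fell with overexpression (42.9% and 28.6%, against 25.2% and 24.1% of all tested genes). All 7 rose with knockdown (100%, against 19.9%). Between the treatments 1 was higher and 5 lower with overexpression (14.3% and 71.4%, against 29.3% and 28.1%). FOSB stood at -0.93 ± 0.09 with overexpression and 1.40 ± 0.08 with knockdown, and FOS at -0.50 ± 0.08 and 0.91 ± 0.08 (log2, SE). Of 32 tested early response genes outside the member list, 18 rose and 3 fell with overexpression (56.2% and 9.38%, against 25.2% and 24.1%). With knockdown 22 rose and 0 fell (68.8% and 0%, against 19.9% and 19.1%). Between the treatments 5 were higher and 11 lower with overexpression (15.6% and 34.4%, against 29.3% and 28.1%). The RNA-binding gene ZFP36L1 rose by 0.95 ± 0.05 and 1.11 ± 0.06, and the Polo-like kinase gene PLK2 by 1.06 ± 0.07 and 0.76 ± 0.07. GADD45B, a stress sensor, stood at -0.59 ± 0.07 with overexpression and 0.82 ± 0.07 with knockdown, and was lower with overexpression than with knockdown (-1.41 ± 0.07, edgeR adjusted p = 2.54e-11).

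A further list held genes taken as ERK outputs beyond the members. FOSL1 is also among the AP-1 genes, and whether each listed gene answers to ERK in these cells was not tested. Of the 15 tested, 9 were higher with overexpression than with knockdown and 2 lower. These are 60% and 13.3%, against 29.3% and 28.1% of all tested genes. Against control, 9 rose with overexpression (60%, against 25.2%), and 5 rose and 5 fell with knockdown (33.3% each, against 19.9% and 19.1%). They included RGS16, a regulator of G-protein signalling (1.07 ± 0.08 for overexpression over knockdown), the cyclin gene CCND1 (0.68 ± 0.06), the ETS factor gene ETV1 (1.31 ± 0.12) and the FGF-receptor inhibitor IL17RD (0.65 ± 0.09). Their edgeR adjusted p-values were between 1.51e-09 and 3.36e-06.

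Upstream, the 36 genes of growth factor receptors and the ERK cascade had shares near those of all tested genes in the comparisons with control. With overexpression 9 rose and 9 fell (25.0% each), and with knockdown 8 rose and 7 fell (22.2% and 19.4%). Of the same genes, 10 were higher and 14 lower with overexpression than with knockdown (27.8% and 38.9%, against 29.3% and 28.1% of all tested genes). EGFR, the EGF receptor, rose by 1.12 ± 0.08 with overexpression and 0.75 ± 0.09 with knockdown. Of 13 nuclear effectors, 3 rose and 2 fell with overexpression (23.1% and 15.4%) and 4 rose and 1 fell with knockdown (30.8% and 7.69%), while 3 were higher and 6 lower between the treatments (23.1% and 46.2%). The SRF partner ELK4 rose by 0.79 ± 0.07 with overexpression and its relative ELK1 fell by 0.58 (SE 0.06). Of 9 other MAP kinase phosphatases, 3 rose and 2 fell with overexpression (33.3% and 22.2%), among them DUSP10 at 0.54 ± 0.09. With knockdown 2 rose and 2 fell (22.2% each), among them DUSP14 at 0.45 ± 0.06, and 1 was higher and 4 lower between the treatments (11.1% and 44.4%). Of 11 other KLF and SP factors, 2 rose and 3 fell with overexpression (18.2% and 27.3%) and 1 rose and 6 fell with knockdown (9.09% and 54.5%), with KLF9 at 0.59 ± 0.05 with overexpression and KLF5 at -0.48 ± 0.07 with knockdown. Between the treatments 8 were higher and 1 lower (72.7% and 9.09%). The shares of all tested genes were 25.2% higher and 24.1% lower with overexpression, 19.9% and 19.1% with knockdown, and 29.3% and 28.1% between the treatments.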

How the data were processed

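The authors deposited a table of raw, unnormalized counts, 1 row per gene symbol. The submitters' processing notes name TopHat2 2.0.8, HTSeq 0.5.3p9, SAMtools 0.1.18, Trimmomatic 0.22, CASAVA 1.8.2 and edgeR, and build hg19. For the annotation, the strand setting and reads with several alignments, nothing is given in the sources used here. Per the labels' protocols, stranded TruSeq libraries were made from total RNA. Each column was matched to a library by its title.

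Genes were filtered with filterByExpr (minimum count 10, minimum total 15) and tested in edgeR 4.0.16 (R 4.3.3) with its quasi-likelihood test (two-sided), using 1 fit of all 8 libraries with TMM factors (0.961 to 1.03). P-values were adjusted by Benjamini-Hochberg over all 15254 genes and called under 0.05. The procedure was tested on simulated data with the spread fitted to these data and far fewer changed genes than were called here. It was not tested under changes as broad as these. Replicate pairs differed by more than sampling noise (chi-square per gene 1.87 to 8.01). Levels per kb use the union of GENCODE 29 basic exons. Alternatives were size factors, library totals, other filters, DESeq2 1.42.0, a replicate block, a fold threshold of 1.2, thinned counts, fits of the compared groups only, and leaving out each library. Members and lists were chosen with earlier results of these data known. Library values are given for members called with an absolute log2 fold change of 0.5 or more whose mean log2 CPM was 1 or more, and for some others chosen after their values were seen; up to 4 genes with the smallest adjusted p stand for each other list.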

Additional observations from a re-analysis of the deposited data

How the results depend on the processing

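Across the 40 tested members, 3 comparisons and all alternatives, 1548 of the recomputed values kept their direction and side of the threshold, 28 values with no call changed sign without gaining one (log2 fold changes of at most 0.15 in size as reported), 120 called values lost their call, 24 uncalled values gained one and 0 called values changed sign. Against a fold of 1.2, 11 of the 40 members were higher and 1 (EGR1) lower with overexpression. Over all 15254 tested genes, 1491 were then higher and 859 lower (2350 calls). With knockdown 10 members were higher and 2 (DUSP4 and DUSP5) lower, against 722 higher and 978 lower of all tested genes (1700 calls). Between the treatments 9 members were higher and 6 lower with overexpression, against 2475 and 1522 of all tested genes (3997 calls). With library totals, 25 members were higher with overexpression, with EGR2, KLF2, IER2 and SPRED2 added and SGK1 lost from the lower ones; 5 were lower with knockdown, with SPRY4 and PHLDA1 added, while HES1, DUSP8 and RHOB lost their calls. Between the treatments CSRNP1, NR4A1, IER5L and PPP1R15A then lost theirs, and ATF3 and HES1 were called higher with overexpression. Leaving out each library gave 3 to 6 members lower with overexpression, the fewest without overexpression replicate 1, and 3043 to 4940 calls over all tested genes with knockdown, the fewest without knockdown replicate 2, where the lone knockdown library is assumed to vary like the other groups. Calls lost with DESeq2 were DUSP6 and SPRY1 with overexpression and EGR2, EGR3, HES1 and DUSP8 with knockdown. In fits of the compared groups only, NR4A1, SPRED2 and PPP1R15A lost their calls between the treatments. PHLDA1 was then called lower with knockdown, where calls over all tested genes were 7406 against 5943 in the main fit. At a minimum count of 50, NR4A1 and PPP1R15A lost theirs between the treatments, and KLF2 was called higher with overexpression. Deviations of same-numbered libraries of different groups had correlations from -0.24 to 0.20. They were taken from group means, which makes the knockdown libraries mirror images, so they cannot exclude pairing. The labels do not say what a number marks, so the main fit had no block. With the replicate block 18 members were higher with knockdown, against 2612 of all tested genes. EGR3, HES1, DUSP8 and RHOB lost their calls with knockdown, and CSRNP1, NR4A1 and SPRED2 lost theirs between the treatments. Random thinning of every library to the shallowest ended the calls of DUSP6 and SPRY1 with overexpression, and of EGR3 and NR4A2 with knockdown. Between the treatments it ended those of CSRNP1, SPRED2 and SGK1. Whether depth or the random draw cost these calls was not tested.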
